A study of Mus musculus with 16 samples.

Results

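Rab GTPases, the family of small GTPases that direct vesicle traffic, were followed at the level of their transcripts in Ba/F3 cells in which FOXO3 or FOXO4 had been activated. Members were all genes whose symbol in the platform's probe annotation is Rab followed by a number up to 43 and at most 1 letter, or by l and a digit. There were 54 of them among 17888 gene symbols, and the brightest probe stood for each gene. Ba/F3 is a mouse haematopoietic line, described as pro-B, that grows in interleukin-3. The cells tested were the FOXO3 line at 2 h and at 8 h of 4-hydroxytamoxifen (4-OHT) and the FOXO4 line at 2 h and at 8 h of 4-OHT, with 4 arrays for each. Each line was a clonal derivative that stably carried pcDNA3-HA-FOXO3(A3)-ER or pcDNA3-HA-FOXO4(A3)-ER and was kept under G418, so the fusion protein was also present in the controls. A3 forms of FOXO escape phosphorylation by protein kinase B, and the ER part, an oestrogen receptor domain, holds the fusion inactive until 4-OHT binds it. The control was a pool of cells of the same line at 0 h, hybridised in the other dye on all 8 arrays of that line. A line with no fusion, and cells of either line kept 2 h or 8 h without 4-OHT, are not analysed here, so time in culture and the drug itself cannot be told apart from FOXO activity. With 1 clone per fusion, the clone and the FOXO factor cannot be told apart either.

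Rab proteins cycle between a GTP-bound form on a membrane and a GDP-bound form in the cytosol. Guanine nucleotide exchange factors (GEFs) switch them on, GTPase-activating proteins (GAPs) switch them off, and escort and dissociation factors carry the lipid-modified protein through the cytosol. The active form recruits effectors (tethers, motors and lipid enzymes), and each Rab marks a particular compartment. In blood cells Rabs are known for receptor recycling, phagosome maturation, granule release and autophagy.

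Of the 54 genes, 51 passed the filter on dim probes and were tested. Rab32, Rab40b and Rab7l1 (now Rab29) were above their local background on 0 of 16 arrays and were not tested, so they had no usable signal here. Each value is the log2 of the treated signal divided by that of the same line's time 0 pool. Values are given with the SE of 1 limma fit over all 16 arrays and 17484 genes, which estimated a dye effect for each gene, and single-array values are shown with that dye effect removed. Genes were called where the limma p, adjusted over all 17484 genes by the Benjamini-Hochberg method, was under 0.05, and every adjusted p below is of this kind. The Cy5 channel had a median spot signal of 92.2 to 159 per array and a median background of 38 to 42. For Cy3 the signal was 96.6 to 158 and the background 40 to 45. A probe is called dim below when it lay under the 95th percentile of the quiet external control spots on all 16 arrays, which held for 17 of the 51 genes. The number of arrays limits the precision, with a median SE of 0.0501 for a group's ratio. The labels were also checked against cell markers. Of 14 B-lineage markers on the array Cd79b was above the control spots in both pools and the other 13 were not, among them Cd79a, Ebf1 and Pax5. Of 11 mast cell and myeloid markers, Cpa3 and Gata2 were above the control spots in both pools. Another 7 (Kit, Fcer1a, Ms4a2, Mpo, Elane, Itgam and Lyz2) were above them in neither pool on any array. Over all 35 markers, 2 were higher and 2 lower in FOXO3 cells at 8 h, and 1 was higher and 3 lower in FOXO4 cells at 8 h. Hba-a1, an erythroid globin, was higher, and Gata2 and Klf1, an erythroid factor, were lower in both lines. Cd3e, a T cell marker, was called higher in FOXO3 cells (0.41). Csf2rb2, an interleukin-3 receptor gene, was called lower in FOXO4 cells (-0.46). The part of such changes in the Rab ratios was not tested. The series text calls the 4 arrays of a group independent, without saying what they share, so p-values measure the spread between these arrays. The arrays measured RNA of whole cultures, so a changed share of cells and a changed amount per cell cannot be told apart.

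At 8 h of FOXO3 activity, 18 Rab genes were higher than at time 0, 2 were lower and 31 were not called. That is 35.3% of the members called higher, beside 15.4% of all genes tested, and 3.92% called lower, beside 15.1% of all genes. The median ratio of the 51 members was 0.036, beside -0.002 for all genes. In FOXO4 cells at 8 h 13 members were higher and 3 lower (25.5% and 5.88%), beside 9.71% and 8.75% of all genes. Signal bears on these shares. Among the 33 members above the control spots on at least 4 arrays, 16 were called higher in FOXO3 cells (48.5%), beside 25.9% of the 8605 genes that bright, and 13 in FOXO4 cells (39.4%), beside 17.9%. The median ratio of these 33 was 0.14 in FOXO3 cells and 0.090 in FOXO4 cells, beside -0.010 and -0.008 for the genes that bright. Of the other 18 members, 2 were called higher in FOXO3 cells and 0 in FOXO4 cells. Members and lists were chosen with earlier results of these data known, and these shares are descriptions. Both the 2 h and the 8 h ratios of a line rest on the same time 0 pool, and the spread of time 0 cultures is not in the errors.

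**Figure D1:**
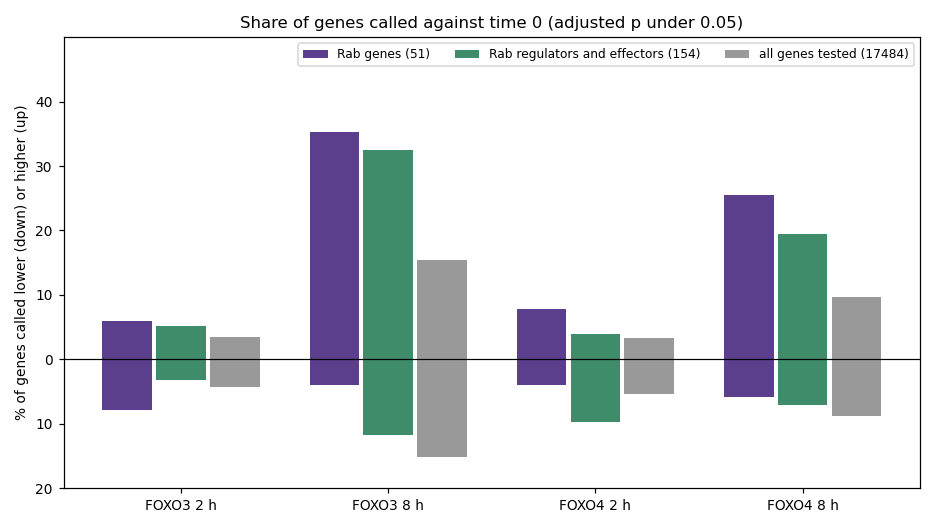
Share of genes called higher (bars up) or lower (bars down) against time 0, in percent, for the 51 Rab genes, the 154 tested Rab regulators and effectors, and all 17484 genes, in each line at 2 h and 8 h. At 8 h the upward bar of the Rab genes is 35.3% in FOXO3 cells and 25.5% in FOXO4 cells, above the 15.4% and 9.71% of all genes.

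The recycling endosome returns receptors to the cell surface, and its regulator Rab11a gave the highest ratio of any member in both lines at 8 h. In FOXO3 cells the 4 arrays gave -0.04, -0.08, 0.12 and 0.12 at 2 h, and 0.95, 0.96, 0.88 and 1.00 at 8 h. In FOXO4 cells they gave -0.13, -0.04, 0.01 and -0.02 at 2 h, and 0.60, 0.48, 0.42 and 0.40 at 8 h. The 8 h arrays of each line lay wholly above the 2 h arrays, and the 8 h arrays of the FOXO3 line lay wholly above those of the FOXO4 line. The fit gave 0.95 ± 0.045 for FOXO3 at 8 h, a fold change of 1.93 (adjusted p = 4.3e-12), and 0.48 ± 0.045 for FOXO4, a fold change of 1.39 (adjusted p = 1.7e-07). Of the 8 recycling Rabs, 4 rose in FOXO3 cells at 8 h and 3 in FOXO4 cells, and 0 fell. The shares that rose were 50% and 37.5%, beside 15.4% and 9.71% of all genes. Rab35, which acts in fast recycling and cell division, rose by 0.31 ± 0.055 in FOXO3 cells and 0.29 ± 0.055 in FOXO4 cells. Rab14, which links the Golgi and endosomes, rose by 0.19 ± 0.062 and 0.26 ± 0.062. Rab11b, the close relative of Rab11a, rose by 0.22 ± 0.042 in FOXO3 cells (adjusted p = 0.0003) and stood at 0.09 ± 0.042 in FOXO4 cells, which was not called. Its probes disagreed on the lines. In a limma fit of all probes, a second Rab11b probe, also above the control spots on 16 of 16 arrays, gave 0.24 in FOXO3 cells (adjusted p = 0.11) and 0.35 in FOXO4 cells (adjusted p = 0.026), and the dim one gave 0.03 and 0.01. Rab4a, a regulator of fast recycling, was not called at 8 h in either line, and neither were Rab15, Rab17 and Rab25.

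**Figure D2:**
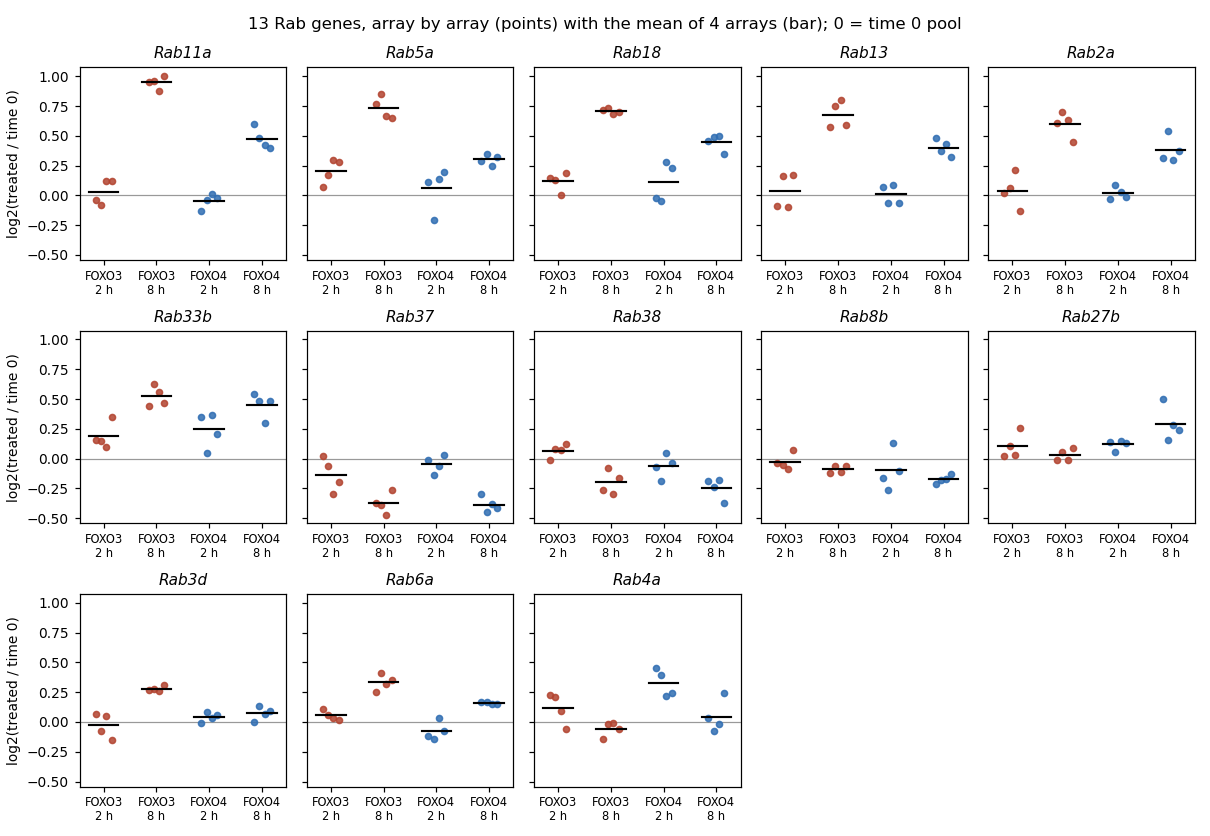
Log2 ratio of treated cells over the time 0 pool for 13 Rab genes, 1 panel a gene, with 1 point per array (FOXO3 line red, FOXO4 line blue) and a bar at the mean of 4 arrays. Rab11a sits between 0.88 and 1.00 in FOXO3 cells at 8 h, above its 0.40 to 0.60 in FOXO4 cells, while Rab37 lies below 0 on all 8 of the 8 h arrays.

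Early endosomes receive material taken up from the surface, and Rab5a drives their fusion. On the FOXO3 arrays at 8 h Rab5a read 0.77, 0.85, 0.67 and 0.65, and on the FOXO4 arrays at 8 h 0.29, 0.35, 0.25 and 0.32. The lines did not overlap at 8 h, and all 8 values were above 0. The ratio was 0.73 ± 0.057 in FOXO3 cells, a fold change of 1.66 (adjusted p = 4.8e-09), and 0.30 ± 0.057 in FOXO4 cells, a fold change of 1.23 (adjusted p = 0.00061). Of its relatives, Rab5b rose by 0.28 ± 0.062 in FOXO3 cells and stood at 0.07 ± 0.062 in FOXO4 cells, not called, while Rab5c stood at -0.15 ± 0.056 and -0.13 ± 0.056, neither called. Rab5b was dim, and Rab5a and Rab5c were above the control spots on 16 of 16 arrays. Rab21, an endosomal Rab that binds integrins, rose by 0.25 ± 0.054 and 0.29 ± 0.054. The time 0 signal of Rab21 was above the control spots on 8 of 8 FOXO3 arrays and 4 of 8 FOXO4 arrays. In all, 3 of the 7 early endosome and phagosome Rabs rose in FOXO3 cells and 2 in FOXO4 cells, with 0 lower. Those shares of 42.9% and 28.6% higher stand beside 15.4% and 9.71% of all genes. Rab20, Rab22a and Rab31, all dim, were not called at 8 h.

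The promoters of the members were read from RefSeq (GRCm38.p6) as windows of 300 bases around each gene's start, most of it upstream. They were found for 44 of the 54 genes. The letters GTAAACA, a core of forkhead sites, and CACGTG, an E-box, were searched on both strands. GTAAACA stood in the promoters of 2 of the 44 genes, beside 4.05% of 27025 genes, and these were Rab39b and Rab43, neither of them called. Among the 16 matched members called higher in FOXO3 cells at 8 h it stood in 0. CACGTG stood in 6 of the 44 (13.6%), beside 8.09% of all genes, and in 3 of those 16, Rab5a, Rab21 and Rab24. Their promoters are shown because they are those 3, with CACGTG in capitals. The Rab5a window is chr17:53478984-53479283 (plus strand), that of Rab21 is chr10:115315542-115315841 (minus strand) and that of Rab24 is chr13:55321931-55322230 (minus strand). A match describes these letters in this window and is no measure of binding.
Rab5a: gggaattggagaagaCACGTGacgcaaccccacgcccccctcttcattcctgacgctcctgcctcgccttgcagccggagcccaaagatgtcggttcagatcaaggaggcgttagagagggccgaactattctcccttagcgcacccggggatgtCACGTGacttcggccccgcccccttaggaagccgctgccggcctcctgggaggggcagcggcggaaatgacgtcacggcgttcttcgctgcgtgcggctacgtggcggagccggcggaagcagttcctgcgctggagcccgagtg
Rab21: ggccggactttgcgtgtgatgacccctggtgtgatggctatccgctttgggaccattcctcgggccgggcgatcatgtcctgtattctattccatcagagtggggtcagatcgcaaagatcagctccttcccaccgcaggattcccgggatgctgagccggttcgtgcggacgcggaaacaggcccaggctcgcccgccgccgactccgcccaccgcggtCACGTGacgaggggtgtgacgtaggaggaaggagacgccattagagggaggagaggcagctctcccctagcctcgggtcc
Rab24: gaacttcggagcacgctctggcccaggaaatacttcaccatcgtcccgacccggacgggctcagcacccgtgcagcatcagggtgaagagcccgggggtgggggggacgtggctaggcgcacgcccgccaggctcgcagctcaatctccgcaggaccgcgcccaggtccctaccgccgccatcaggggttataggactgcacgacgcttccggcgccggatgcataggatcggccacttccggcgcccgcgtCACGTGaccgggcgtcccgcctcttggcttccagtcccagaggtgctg

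Rabs of the endoplasmic reticulum and Golgi were the most numerous group, and 6 of 15 rose in FOXO3 cells at 8 h and 5 of 15 in FOXO4 cells, with 0 lower in either. The risen shares were 40% and 33.3%, beside 15.4% and 9.71% of all genes. Rab18, known from the reticulum and from lipid droplets, gave 0.72, 0.73, 0.68 and 0.70 in FOXO3 cells at 8 h and 0.46, 0.49, 0.50 and 0.35 in FOXO4 cells at 8 h. These 2 sets did not overlap, and the FOXO3 values were close together. The fit gave 0.71 ± 0.051 (fold change 1.63, adjusted p = 1.7e-09) and 0.45 ± 0.051 (fold change 1.37, adjusted p = 2.2e-06). Rab2a acts between the reticulum and the Golgi and in the fusion of autophagosomes with lysosomes. It gave 0.61, 0.70, 0.63 and 0.45 in FOXO3 cells at 8 h and 0.31, 0.54, 0.30 and 0.37 in FOXO4 cells at 8 h. Here the lines overlapped, since 1 FOXO4 array exceeded 1 FOXO3 array. The ratios were 0.60 ± 0.053 (fold change 1.51, adjusted p = 3.2e-08) and 0.38 ± 0.053 (fold change 1.30, adjusted p = 2.7e-05). For Rab2a 3 probes were bright on 16 of 16 arrays, and they gave 0.60, 0.65 and 0.56 in FOXO3 cells at 8 h and 0.38, 0.33 and 0.44 in FOXO4 cells at 8 h.

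Rab33b, a Golgi Rab that binds the autophagy protein Atg16l1, was above 0 on all 16 arrays. The 8 h arrays gave 0.44, 0.63, 0.56 and 0.47 in FOXO3 cells and 0.54, 0.48, 0.30 and 0.48 in FOXO4 cells, and these ranges overlapped. Its ratio was 0.53 ± 0.056 in FOXO3 cells (adjusted p = 3.4e-07) and 0.45 ± 0.056 in FOXO4 cells (adjusted p = 7.6e-06). The time 0 signal of Rab33b was above the control spots on 4 of 8 FOXO3 arrays and 3 of 8 FOXO4 arrays, a low starting signal. Rab6a, which serves transport within and back from the Golgi, gave 0.25, 0.41, 0.32 and 0.35 in FOXO3 cells at 8 h and 0.17, 0.17, 0.15 and 0.15 in FOXO4 cells at 8 h. The FOXO3 arrays lay wholly above the FOXO4 arrays, at 0.33 ± 0.038 (adjusted p = 7.6e-07) and 0.16 ± 0.038 (adjusted p = 0.0047). The second Rab6a probe gave 0.31 and 0.22, and the third, the dimmest, gave 0.12 and 0.00. Rab1b, which acts in export from the reticulum, rose by 0.24 ± 0.067 in FOXO3 cells and 0.21 ± 0.067 in FOXO4 cells. Its relative on the platform under the symbol Rab1 stood at -0.04 ± 0.068 and -0.10 ± 0.068, neither called. Rab2b rose by 0.19 ± 0.069 in FOXO3 cells, close to the threshold (adjusted p = 0.044), and stood at 0.11 ± 0.069 in FOXO4 cells, not called. Its second probe, which was dim, gave 0.23 and 0.02. The time 0 signal of the brighter Rab2b probe was above the control spots on 1 of 8 FOXO3 arrays and 3 of 8 FOXO4 arrays.

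Of the 4 Rabs that carry cargo to the plasma membrane, 2 rose and 0 fell in FOXO3 cells at 8 h. In FOXO4 cells at 8 h 2 rose and 1 fell. The shares were 50% and 0% in FOXO3 cells, beside 15.4% and 15.1% of all genes. They were 50% and 25% in FOXO4 cells, beside 9.71% and 8.75%. Rab13, which serves tight junctions in epithelia, gave 0.57, 0.75, 0.80 and 0.59 in FOXO3 cells at 8 h and 0.48, 0.37, 0.43 and 0.32 in FOXO4 cells at 8 h. All 8 values were above the 2 h values of both lines, which ran from -0.10 to 0.17. The ratio was 0.68 ± 0.054 in FOXO3 cells (fold change 1.60, adjusted p = 7.2e-09) and 0.40 ± 0.054 in FOXO4 cells (fold change 1.32, adjusted p = 1.9e-05). The time 0 signal of Rab13 was above the control spots on 2 of 8 FOXO3 arrays and 3 of 8 FOXO4 arrays. Both fold changes therefore have a low starting signal. Rab8a, an exocytic Rab, rose by 0.25 ± 0.051 in FOXO3 cells and stood at 0.13 ± 0.051 in FOXO4 cells, not called. Rab10, known from glucose transporter delivery, stood at 0.12 ± 0.055 in FOXO3 cells, not called, and rose by 0.29 ± 0.055 in FOXO4 cells. Rab8b gave -0.12, -0.06, -0.11 and -0.06 in FOXO3 cells at 8 h and -0.21, -0.18, -0.17 and -0.13 in FOXO4 cells at 8 h, so every value was below 0. It was not called in FOXO3 cells, at -0.09 ± 0.049, and was called lower in FOXO4 cells, at -0.17 ± 0.049 (adjusted p = 0.018).

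Among the 9 Rabs of secretory granules and lysosome-related organelles, 1 rose and 2 fell in each line at 8 h (11.1% and 22.2%). Of all genes 15.4% rose and 15.1% fell in FOXO3 cells, and 9.71% and 8.75% in FOXO4 cells. Rab37, known from mast cell and other secretory granules, gave -0.37, -0.39, -0.47 and -0.26 in FOXO3 cells at 8 h and -0.30, -0.45, -0.38 and -0.41 in FOXO4 cells at 8 h. The lines overlapped, and the ratio was -0.37 ± 0.050 (adjusted p = 5.9e-06) and -0.39 ± 0.050 (adjusted p = 1e-05). The treated signal of Rab37 at 8 h was above the control spots on 0 of 4 arrays in FOXO3 cells and 0 of 4 in FOXO4 cells, and the time 0 signal on 2 of 8 and 4 of 8, so no fold change is given. Rab38, which acts with Rab32 in melanosome formation, gave -0.26, -0.08, -0.30 and -0.16 in FOXO3 cells at 8 h and -0.19, -0.24, -0.18 and -0.37 in FOXO4 cells at 8 h. All 8 values were below 0, at -0.20 ± 0.047 (adjusted p = 0.0022) and -0.24 ± 0.047 (adjusted p = 0.00075). Rab3d, a Rab of regulated exocytosis, gave 0.27, 0.28, 0.26 and 0.31 in FOXO3 cells at 8 h and 0.00, 0.13, 0.07 and 0.09 in FOXO4 cells at 8 h. The sets were apart, but the probe was dim on 16 of 16 arrays, so its fold change of 1.21 (adjusted p = 1.3e-05) has a low starting signal. Rab27b, which docks secretory granules, gave -0.01, 0.06, -0.01 and 0.09 in FOXO3 cells at 8 h and 0.50, 0.16, 0.28 and 0.24 in FOXO4 cells at 8 h. The FOXO4 arrays lay wholly above the FOXO3 arrays. The gene stood at 0.03 ± 0.050 in FOXO3 cells, not called, and rose by 0.29 ± 0.050 in FOXO4 cells (adjusted p = 0.00022). Rab27a was the least precise member: its brightest probe gave -0.17 ± 0.153 and -0.26 ± 0.153, not called, with single arrays from -0.90 to 0.17 over the 4 groups. A second, dim Rab27a probe gave -0.15 in FOXO3 cells at 8 h (adjusted p = 0.025 in the limma fit of all probes) and -0.09 in FOXO4 cells at 8 h.

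Of the 4 late endosome and lysosome Rabs, 2 rose in FOXO3 cells at 8 h and 0 in FOXO4 cells (50% and 0%, beside 15.4% and 9.71% of all genes). In FOXO3 cells at 8 h Rab12, linked to receptor degradation and autophagy, rose by 0.14 ± 0.042, and Rab24, also linked to autophagy, by 0.14 ± 0.043. In FOXO4 cells at 8 h Rab12 stood at 0.03 ± 0.042 and Rab24 at -0.02 ± 0.043, neither called. The time 0 signal of Rab12 was above the control spots on 3 of 8 FOXO3 arrays and 4 of 8 FOXO4 arrays. Rab9 stood at 0.15 ± 0.069 in FOXO3 cells and 0.09 ± 0.069 in FOXO4 cells at 8 h, and Rab9b at 0.01 ± 0.063 and 0.03 ± 0.063, none of them called. Rab40c, a Rab with a SOCS box that joins ubiquitin ligases, and Rab23, Rab28 and Rab42 were not called at 8 h in either line.

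**Figure D3:**
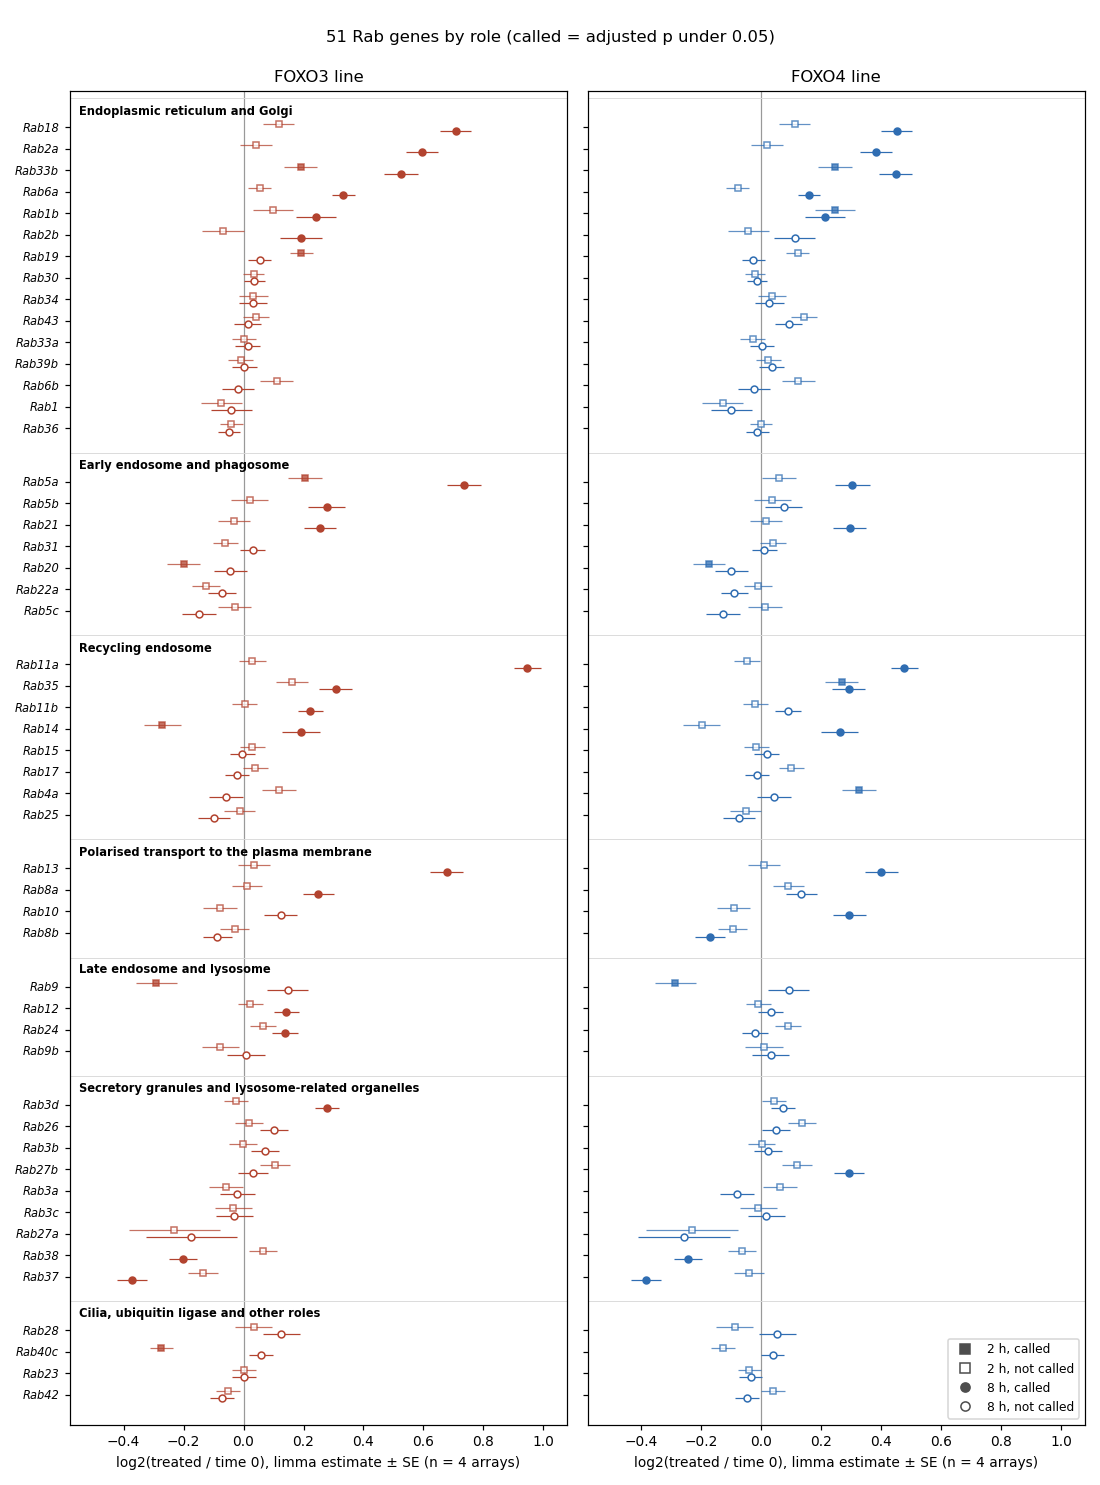
Log2 ratio over time 0 with its SE for all 51 tested Rab genes, grouped by role, in the FOXO3 line (left) and the FOXO4 line (right), at 2 h (squares) and 8 h (circles), with filled symbols for called genes. Filled 8 h circles lie to the right of 0 except for Rab37 and Rab38 in both lines and Rab8b in FOXO4 cells.

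Some of these 8 h calls were lost without the dye term or when an array was left out. Without the dye term the ratios are the same, but the dye difference then counts as spread, and 9 calls were left in FOXO3 cells and 10 in FOXO4 cells, all higher. The calls lost were Rab11b, Rab12, Rab14, Rab1b, Rab21, Rab24, Rab2b, Rab37, Rab38, Rab3d and Rab8a in FOXO3 cells (adjusted p = 0.057 to 0.80), and Rab1b, Rab21, Rab37, Rab38, Rab5a and Rab8b in FOXO4 cells (adjusted p = 0.058 to 0.60). When 1 array was left out at a time, 15 of the 20 calls in FOXO3 cells held in all 16 fits. The other 5 were lost as follows: Rab12 and Rab2b without FOXO3 8 h replicate 1 (adjusted p = 0.069 to 0.071), Rab14 without replicate 2 (0.12), Rab12, Rab14, Rab1b, Rab24 and Rab2b without replicate 3 (0.052 to 0.24), and Rab14, Rab24 and Rab2b without replicate 4 (0.14 to 0.17). Rab2b was also lost without 1 array of another group in 5 fits (adjusted p = 0.051 to 0.055). In FOXO4 cells 14 of 16 calls held in all 16 fits. Rab1b was lost without each of the 4 FOXO4 8 h replicates and Rab8b without replicates 1, 2 and 3 (adjusted p = 0.056 to 0.19). Calls also ended under median centring for Rab11b, Rab14 and Rab24 in FOXO3 cells (adjusted p = 0.098 to 0.26) and Rab8b in FOXO4 cells (0.35). Centring on the external control spots ended Rab14 and Rab24 in FOXO3 cells (0.057 to 0.066) and Rab38 and Rab8b in FOXO4 cells (0.080 to 0.65). The authors' deposited log2 ratios ended Rab24 in FOXO3 cells (0.063) and Rab1b in FOXO4 cells (0.081), and a fit of the FOXO3 line alone ended Rab14 and Rab2b (0.050 to 0.053).

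After 2 h fewer members were called than at 8 h. In FOXO3 cells 3 members were higher and 4 lower (5.88% and 7.84%), beside 3.47% and 4.34% of all genes, and the median of the members was 0.004. Rab40c was lower at -0.27 ± 0.039 (adjusted p = 0.00011). Rab9, which returns receptors from late endosomes to the Golgi, was lower at -0.29 ± 0.069 (adjusted p = 0.01). Both genes were below 0 on all 4 of these arrays. Rab14 was lower at -0.27 ± 0.062 (adjusted p = 0.0083), and so was the dim Rab20, a Rab of phagosomes, at -0.20 ± 0.054 (adjusted p = 0.025). The members called higher were Rab5a (0.21 ± 0.057), Rab19, a Golgi Rab (0.19 ± 0.038), and Rab33b (0.19 ± 0.056). In FOXO4 cells 4 members were higher and 2 lower (7.84% and 3.92%), beside 3.39% and 5.41% of all genes. Rab4a gave 0.23, 0.21, 0.09 and -0.06 in FOXO3 cells at 2 h, and 0.45, 0.39, 0.22 and 0.24 in FOXO4 cells at 2 h. The ranges overlapped narrowly, and it was not called in FOXO3 cells, at 0.12 ± 0.056, and was called in FOXO4 cells, at 0.32 ± 0.056 (adjusted p = 0.0008). Rab35 (0.27 ± 0.055), Rab1b (0.25 ± 0.067) and Rab33b (0.24 ± 0.056) were also higher in FOXO4 cells. Rab9 was lower there at -0.29 ± 0.069, as was the dim Rab20 at -0.18 ± 0.054, whose adjusted p of 0.0499 lay at the threshold.

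Several 2 h calls lay near the threshold and were lost when an array was left out, often with little change in the ratio: Rab9 in FOXO3 cells then gave -0.27, and Rab20 in FOXO4 cells -0.16 to -0.20. In FOXO3 cells 2 of 7 calls, Rab19 and Rab40c, held in all 16 fits that left out an array, and the count was 4 without FOXO3 2 h replicate 2, 4 without replicate 3 and 3 without replicate 4. The calls ended with replicate 1 left out were Rab20, Rab33b and Rab9, and with replicate 2 left out Rab33b, Rab5a and Rab9 (adjusted p = 0.058 to 0.099). Leaving out replicate 3 or replicate 4 ended Rab14, Rab20, Rab33b and Rab5a (adjusted p = 0.053 to 0.33). Rab33b was also lost in 6 fits without an array of another group (adjusted p = 0.051 to 0.057). Median centring left 0 members higher and 4 lower, and centring on the external control spots left 1 higher and 1 lower. Without the dye term 2 calls were left, Rab19 and Rab40c. In FOXO4 cells Rab4a and Rab35 held in all 16 fits, and the count was 2 without FOXO4 2 h replicate 1 and 3 without replicate 2. Rab1b was lost without replicates 1, 2 and 4, Rab9 without replicates 1 and 2, Rab33b without replicates 1 and 3, and Rab20 without any 1 of the 4 (adjusted p = 0.061 to 0.18). Rab20 was also lost in 7 fits without an array of another group (adjusted p = 0.052 to 0.065). Centring on the external control spots left 4 higher and 0 lower in FOXO4 cells at 2 h, against 4 and 2, and without the dye term 3 higher and 0 lower were left.

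Between 2 h and 8 h the time 0 pool drops out of the comparison. In FOXO3 cells 15 members were higher at 8 h than at 2 h and 2 were lower (29.4% and 3.92%), beside 11.8% and 9.99% of all genes. In FOXO4 cells 9 were higher and 2 lower (17.6% and 3.92%), beside 6.74% and 3.95%. Rab11a rose by 0.92 ± 0.063 between these times in FOXO3 cells (adjusted p = 4e-09) and by 0.53 ± 0.063 in FOXO4 cells (adjusted p = 1.4e-05). Rab13 rose by 0.64 ± 0.077 and 0.39 ± 0.077, Rab18 by 0.59 ± 0.073 and 0.34 ± 0.073, and Rab2a by 0.55 ± 0.076 and 0.36 ± 0.076. None of these 4 genes had been called at 2 h in either line, which does not show that they had not begun to rise. Rab18 stood at 0.12 ± 0.051 in FOXO3 cells and 0.11 ± 0.051 in FOXO4 cells at 2 h. Rab33b had been called at 2 h in both lines, and it was higher again at 8 h in FOXO3 cells (0.34 ± 0.079), while its 0.20 ± 0.079 in FOXO4 cells was not called.

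Some of the genes called lower at 2 h were higher again at 8 h. Rab14 was higher at 8 h than at 2 h by 0.46 ± 0.088 in FOXO3 cells and 0.46 ± 0.088 in FOXO4 cells, and Rab9 by 0.44 ± 0.097 and 0.38 ± 0.097. Rab40c was higher by 0.33 ± 0.055 in FOXO3 cells (adjusted p = 0.00015), and its 0.17 ± 0.055 in FOXO4 cells was not called. Rab20 was not called between these times, at 0.16 ± 0.076 in FOXO3 cells and 0.08 ± 0.076 in FOXO4 cells. Rab4a did the reverse in FOXO4 cells, lower at 8 h than at 2 h at -0.28 ± 0.080 (adjusted p = 0.027). Rab37 was lower at 8 h than at 2 h in both lines, at -0.24 ± 0.070 and -0.34 ± 0.070, and Rab38 in FOXO3 cells, at -0.26 ± 0.066. Leaving out 1 array at a time ended the calls of Rab5b, Rab37 and Rab8a in FOXO3 cells (adjusted p = 0.0505 to 0.13) and of Rab4a, Rab21 and Rab9 in FOXO4 cells (adjusted p = 0.058 to 0.11). The arrays concerned were each of the 4 FOXO3 2 h replicates, the 4 FOXO3 8 h replicates and FOXO4 8 h replicate 1, and in FOXO4 cells 2 h replicates 1, 2 and 3 and 8 h replicates 1, 2 and 3. Centring ended further calls: Rab11b, Rab6a and Rab8a under either centring and Rab37 under that on control spots in FOXO3 cells (adjusted p = 0.053 to 0.24), and Rab4a and Rab6a under either and Rab21 under that on control spots in FOXO4 cells (adjusted p = 0.058 to 0.16). Without the dye term 10 calls were left in FOXO3 cells, where Rab11b, Rab21, Rab37, Rab38, Rab3d, Rab5b and Rab8a were no longer called (adjusted p = 0.16 to 1.00). In FOXO4 cells 3 were left, and Rab10, Rab13, Rab18, Rab21, Rab2a, Rab37, Rab4a and Rab9 were no longer called (adjusted p = 0.050 to 1.00).

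The FOXO3 and FOXO4 lines could be compared directly, each against its own pool. At 2 h 0 of 51 members differed by adjusted p in limma, where 3 did at an unadjusted p under 0.05, and 0.0343% of all genes were called. At 8 h 6 members had a higher ratio in FOXO3 cells and 1 a lower ratio (11.8% and 1.96%), beside 5.37% and 5.28% of all genes. Rab11a differed by 0.47 ± 0.063 (adjusted p = 6e-05) and Rab5a by 0.43 ± 0.081 (adjusted p = 0.0014). Rab13 differed by 0.28 ± 0.077, Rab18 by 0.26 ± 0.073, the dim Rab3d by 0.21 ± 0.056 and Rab6a by 0.17 ± 0.053, with adjusted p from 0.022 to 0.043. Rab27b went the other way, with a ratio lower in FOXO3 cells at -0.26 ± 0.071 (adjusted p = 0.021). For Rab11a, Rab5a, Rab3d, Rab6a, Rab18, Rab13 and Rab27b the 4 arrays of one line did not overlap the 4 arrays of the other. Such a gap does not mark out the called genes, since members not called between the lines had it too. Rab24 gave 0.08 to 0.24 in FOXO3 cells and -0.15 to 0.03 in FOXO4 cells. Rab8b gave -0.12 to -0.06 and -0.21 to -0.13. How many of all genes had such a gap was not counted. Over the whole family 36 of 51 ratios were higher in FOXO3 cells, beside 9463 of all 17484 genes. The median difference was 0.042, beside 0.009 for all genes.

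Several members that changed in both lines gave differences that were not called. Rab2a differed by 0.21 (95% confidence interval 0.05 to 0.37, adjusted p = 0.089), Rab33b by 0.08 (-0.09 to 0.25) and Rab35 by 0.02 (-0.15 to 0.18). Rab37 differed by 0.01 (-0.13 to 0.16) and Rab38 by 0.04 (-0.10 to 0.18). Differences of this size were within the error, which does not show that the lines were alike. Of the 18 members higher in FOXO3 cells at 8 h, 11 were also higher in FOXO4 cells, which is 61.1% of the FOXO3 list and 84.6% of the 13 in the FOXO4 list. Over all genes 1527 were higher in both, which is 56.8% of the 2688 in the FOXO3 list and 90.0% of the 1697 in the FOXO4 list, so the shares of the Rab genes lay near this background. The 11 were Rab11a, Rab13, Rab14, Rab18, Rab1b, Rab21, Rab2a, Rab33b, Rab35, Rab5a and Rab6a. Rab37 and Rab38 were lower in both, and 0 members were called in opposite directions. Between the lines at 8 h, Rab11a and Rab5a stayed called in all 16 fits that left out an array. The count of 7 fell to 3 without FOXO3 8 h replicate 2 or without FOXO4 8 h replicate 1, and to 4 without FOXO3 8 h replicate 3 or FOXO4 8 h replicate 3 or 4. The calls lost in such fits were Rab13, Rab18, Rab27b, Rab3d and Rab6a (adjusted p = 0.051 to 0.16). Without the dye term Rab11a alone was called, and Rab5a had an adjusted p of 0.12. With centring on control spots there were 4 higher and 0 lower, without Rab18, Rab27b, Rab3d and Rab6a (adjusted p = 0.081 to 0.93) and with 1 further gene. Median centring gave 5 higher and 0 lower, without Rab18, Rab27b and Rab6a (adjusted p = 0.055 to 0.92) and with 1 further gene. Rab6a also lost its call with the mean of all its probes (adjusted p = 0.12) and without background correction (0.051).

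**Figure D4:**
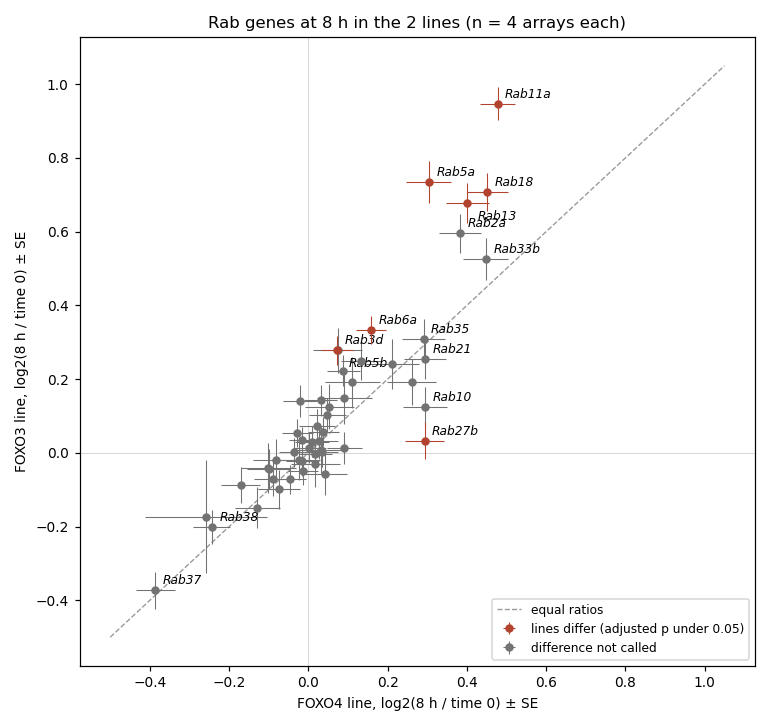
Log2 ratio of 8 h over time 0 in the FOXO3 line (vertical) against the FOXO4 line (horizontal) for 51 Rab genes, with SE bars, a dashed line of equal ratios and red points where the difference between the lines was called. Rab11a at 0.95 and 0.48 lies farthest above the dashed line and Rab27b at 0.03 and 0.29 farthest below it.

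The genes that load, switch and read the Rabs were described from lists of 164 genes, of which 154 were tested. In FOXO3 cells at 8 h 50 of them rose and 18 fell, with 86 not called. In FOXO4 cells at 8 h 30 rose and 11 fell, with 113 not called. That is 32.5% higher and 11.7% lower in FOXO3 cells, beside 15.4% and 15.1% of all genes, and 19.5% and 7.14% in FOXO4 cells, beside 9.71% and 8.75%. Signal was not matched for these lists. Of the 8605 genes above the control spots on at least 4 arrays, 25.9% were higher and 27.9% lower in FOXO3 cells. In FOXO4 cells these shares were 17.9% and 16.9%. The median ratio of the lists was 0.020 and 0.008. With centring on control spots 38 were higher and 4 lower in FOXO4 cells, and without the dye term 43 and 17 genes were called in the 2 lines at 8 h.

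Of 8 factors for lipid attachment, escort and recycling, 2 rose and 1 fell in FOXO3 cells at 8 h (25% and 12.5%, beside 15.4% and 15.1% of all genes). Rabac1, a prenylated Rab acceptor of the Golgi, rose by 0.84 ± 0.057 in FOXO3 cells and 0.49 ± 0.057 in FOXO4 cells. Chm, the escort protein that presents new Rabs for lipid attachment, rose by 0.46 ± 0.048 and 0.21 ± 0.048. Rabggtb, a subunit of the enzyme that attaches the lipid, was lower in FOXO3 cells at -0.34 ± 0.074 and stood at -0.21 ± 0.074 in FOXO4 cells, not called. Both Rabac1 and Chm differed between the lines at 8 h, by 0.34 ± 0.080 and 0.25 ± 0.068 (adjusted p = 0.0077 and 0.022).

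Of 42 exchange factors 14 rose and 8 fell in FOXO3 cells at 8 h (33.3% and 19.0%, beside 15.4% and 15.1% of all genes). In FOXO4 cells 12 rose and 4 fell (28.6% and 9.52%, beside 9.71% and 8.75%). The highest were Madd, an exchange factor of Rab3 and Rab27 proteins (0.88 ± 0.042 in FOXO3 cells and 0.49 ± 0.042 in FOXO4 cells), Dennd5a (0.85 ± 0.053 and 0.32 ± 0.053) and Dennd1c (0.65 ± 0.075 and 0.24 ± 0.075). C9orf72, a partner of Smcr8 in autophagy, rose by 0.54 ± 0.050 and 0.27 ± 0.050, and Dennd6a by 0.51 ± 0.041 and 0.43 ± 0.041. The lowest was Dennd2d, at -0.62 ± 0.040 in FOXO3 cells and -0.34 ± 0.040 in FOXO4 cells. Hps1, a subunit of the exchange factor for Rab32 and Rab38, was lower in FOXO3 cells at -0.34 ± 0.067, and stood at -0.18 ± 0.067 in FOXO4 cells, not called. Its partner Hps4, picked out after its values were seen, was lower in both lines, at -0.18 ± 0.045 and -0.19 ± 0.045. Dennd4b (-0.24 ± 0.062), Rin3 (-0.23 ± 0.077) and the dim Rin1, an exchange factor of Rab5 (-0.22 ± 0.046), were also lower in FOXO3 cells. In FOXO4 cells at 8 h Rin1 was lower at -0.27 ± 0.046, and Dennd4b and Rin3 stood at -0.11 and -0.09, not called.

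Of 38 genes listed as GTPase-activating proteins 11 rose and 3 fell in FOXO3 cells at 8 h (28.9% and 7.89%, beside 15.4% and 15.1% of all genes). Not every gene on this list need switch off a Rab, and that was not checked. In FOXO4 cells 5 rose and 2 fell (13.2% and 5.26%, beside 9.71% and 8.75%). Tbc1d15, which acts on Rab7, rose by 1.04 ± 0.060 in FOXO3 cells and 0.94 ± 0.060 in FOXO4 cells, more than any member of the Rab family itself. Rabgap1 rose by 0.72 ± 0.038 and 0.42 ± 0.038, and the dim Tbc1d23 by 0.69 ± 0.051 and 0.33 ± 0.051. Rab3gap1, part of a complex that acts on Rab3 and activates Rab18, rose by 0.49 ± 0.059 and 0.20 ± 0.059. Tbc1d5, a regulator of Rab7 on retromer, rose by 0.41 ± 0.054 in FOXO3 cells and stood at 0.14 ± 0.054 in FOXO4 cells, not called. Tbc1d14, known from Rab11 endosomes and autophagy, was lower at -0.33 ± 0.050 and -0.16 ± 0.050, and so was the dim Tbc1d16 at -0.20 ± 0.053 and -0.21 ± 0.053. Tbc1d7 was lower in FOXO3 cells at -0.19 ± 0.050 and stood at -0.02 ± 0.050 in FOXO4 cells, not called.

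Of 66 effectors 23 rose and 6 fell in FOXO3 cells at 8 h (34.8% and 9.09%, beside 15.4% and 15.1% of all genes). In FOXO4 cells 11 rose and 5 fell (16.7% and 7.58%, beside 9.71% and 8.75%). Appl1 and Rabep1 both bind Rab5, and Appl1 rose by 0.76 ± 0.055 in FOXO3 cells and 0.54 ± 0.055 in FOXO4 cells, and Rabep1 by 0.66 ± 0.062 and 0.55 ± 0.062. Mical1, an actin-oxidising enzyme that binds several Rabs, rose by 0.95 ± 0.062 and 0.54 ± 0.062, and Uso1, a Golgi tether recruited by Rab1, by 0.51 ± 0.037 and 0.38 ± 0.037. Osbpl1a, a Rab7 effector of late endosomes, rose by 0.57 ± 0.066 in FOXO3 cells and stood at -0.08 ± 0.066 in FOXO4 cells, not called. The lowest were Inpp5b, a lipid phosphatase that also binds Rab5, at -0.33 ± 0.048 in FOXO3 cells and -0.16 ± 0.048 in FOXO4 cells, and Vps8, a tether of early endosomes, at -0.30 ± 0.052 and -0.21 ± 0.052. Unc13d, a Rab27 effector of granule release, was lower at -0.15 ± 0.050 and -0.21 ± 0.050. Rilpl2 (-0.23 ± 0.047) and the dim Gorasp1 (-0.19 ± 0.050) were lower in FOXO3 cells and were not called in FOXO4 cells, at -0.02 and -0.14.

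**Figure D5:**
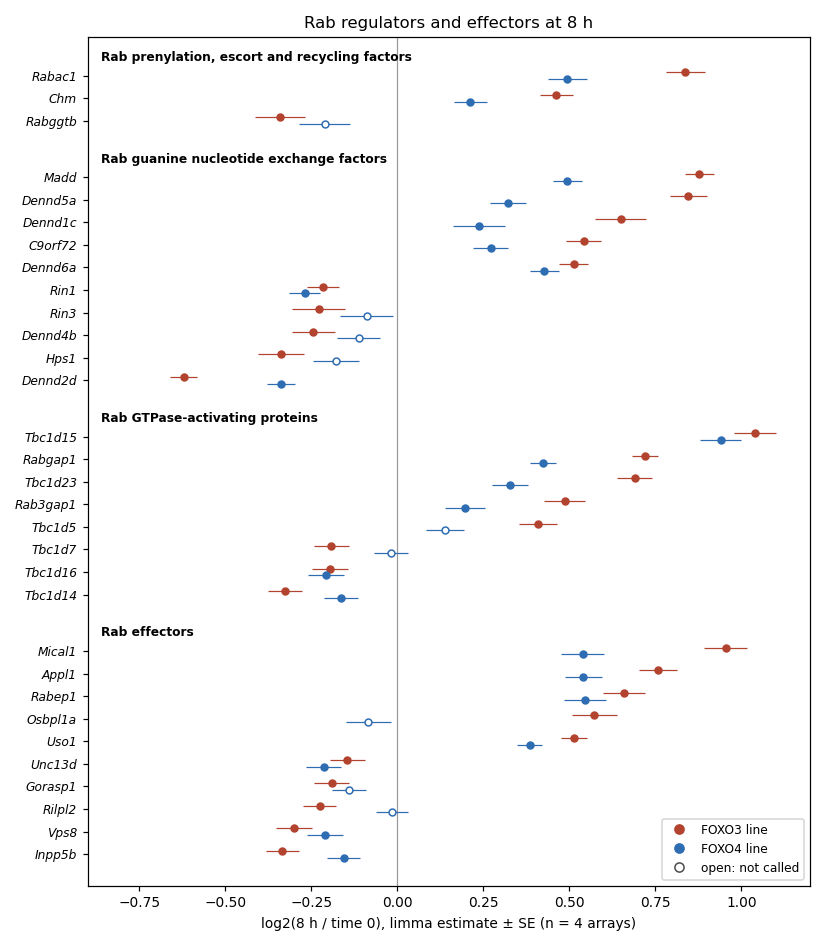
Log2 ratio of 8 h over time 0 with its SE in FOXO3 cells (red) and FOXO4 cells (blue) for the regulators and effectors named in the text except Hps4, 4 lists from top to bottom, with open symbols where a gene was not called. Tbc1d15 lies near 1 in both lines, at 1.04 and 0.94, while Osbpl1a reads 0.57 in FOXO3 cells and -0.08 in FOXO4 cells.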

How the data were processed

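RNA from Ba/F3 cells was amplified, labelled with Cy5 or Cy3 and hybridised on 2-colour arrays, per the labels' protocols. The scanner files hold a mean spot intensity and a median local background per channel, deposited without subtraction, per the file headers. The authors also deposited normalized intensities and their log2 ratios, which equal log2 of treated over time 0 within 5e-06. How the authors normalized, which scanner they used and the array's genome build are not stated in the sources used here. Raw intensities were background-corrected (limma 3.58.1 in R 4.3.3, normexp, offset 50) and normalized by loess within arrays, with control spots at weight 0. A probe had to exceed its local background by 2 SD, in Cy5 or Cy3, on 4 or more arrays, and 942 of 31769 did not. Genes were named from the platform table, updated through RefSeq, and the brightest probe of a gene was used. All 16 arrays entered 1 limma fit (4 group means and a dye term per gene, lmFit and eBayes), tested on simulated data. Each group had 2 arrays in each dye orientation, so the dye effect cancels in its mean.

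Values array by array were given for members that were, at 8 h in either line, among the 6 highest or the 6 lowest called, that were called between lines, or that were called at 2 h with a log2 ratio of at least 0.3 in size. From each regulator or effector list, up to 5 called genes of highest and 5 of lowest ratio in FOXO3 cells at 8 h were named. The members and lists were chosen with earlier results of these data known. Alternatives tried were no dye term, median and control-spot centring, no background correction, the authors' deposited log2 ratios, other filters on dim probes, the mean of all probes, fits of 1 line, a replicate block and leaving out each array. Members can share sequence with close relatives, and cross-hybridisation was not tested.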

Additional observations from a re-analysis of the deposited data

Results flagged for a closer look

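At 8 h the response of 7 Rab genes differed between the FOXO3 line and the FOXO4 line when the difference itself was tested in limma (Benjamini-Hochberg adjusted p over all genes). The log2 ratio against time 0 was higher in FOXO3 cells by 0.47 for Rab11a (adjusted p = 6e-05), 0.43 for Rab5a (adjusted p = 0.0014), 0.28 for Rab13 (adjusted p = 0.025), 0.26 for Rab18 (adjusted p = 0.027), 0.21 for Rab3d (adjusted p = 0.022) and 0.17 for Rab6a (adjusted p = 0.043). For Rab27b the difference was -0.26 (adjusted p = 0.021), a higher ratio in FOXO4 cells. Of these 7 calls 2 held in all fits that left out an array, and 1 held in every setting tried. The Rab3d probe was dim. Each line is 1 clone with its own time 0 pool, so the clone, the pool and the FOXO factor cannot be told apart. A screen of 52 sets of array values for an array far from the other 3 of its group flagged 0. These sets were the 13 Rab genes given array by array, in the 4 groups, and not the whole family. Rab27a was not among them, and it gave -0.78, -0.25, 0.13 and -0.03 in FOXO3 cells at 2 h. Arrays could still lie apart without being flagged, as for Rab5a in FOXO4 cells at 2 h, with 0.11, -0.21, 0.14 and 0.20.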

How the results depend on the processing

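Of the 8 counts of called Rab genes and the counts of called regulators and effectors at 8 h, each changed by more than 1.5 times when the dye term was left out, except the count of 0 between lines at 2 h. Without the dye term the counts were 2 (of 7) for FOXO3 at 2 h, 9 (of 20) for FOXO3 at 8 h, 3 (of 6) for FOXO4 at 2 h, 10 (of 16) for FOXO4 at 8 h, 10 (of 17) and 3 (of 11) for 8 h against 2 h in FOXO3 and FOXO4 cells, and 1 (of 7) between lines at 8 h. Regulators and effectors then numbered 43 (of 68) in FOXO3 cells and 17 (of 41) in FOXO4 cells. The ratios stay the same there, and the dye difference enters the spread. Median centring gave 4 for FOXO3 at 2 h, and centring on the external control spots gave 2 for FOXO3 at 2 h and 4 between lines at 8 h. Centring on control spots also moved the split for FOXO4 at 8 h to 15 higher and 1 lower, against 13 and 3. The authors' deposited log2 ratios gave 9 for FOXO4 at 2 h. Leaving out 1 array gave 3 to 7 for FOXO3 at 2 h, 16 to 21 for FOXO3 at 8 h, 2 to 8 for FOXO4 at 2 h, 14 to 16 for FOXO4 at 8 h, 14 to 18 and 8 to 13 for 8 h against 2 h in FOXO3 and FOXO4 cells, 0 to 0 between lines at 2 h, 3 to 7 between lines at 8 h, and 60 to 69 and 31 to 47 regulators and effectors in FOXO3 and FOXO4 cells. Among called Rab genes 0 changed direction under any setting tried. A replicate block (the replicate number in a line) was also tried. As a random effect beside the dye term it gave 7 and 20 calls for FOXO3 at 2 h and 8 h. It gave 7 and 16 for FOXO4 at 2 h and 8 h, and 0 and 7 between lines at 2 h and 8 h. For 8 h against 2 h the block was a fixed term, without a separate dye term. That fit gave 17 calls in FOXO3 cells and 11 in FOXO4 cells. Same-numbered arrays share a dye orientation and correlated at 0.727 to 0.893, and with the dye term removed at -0.39 to 0.168, over 0.1 in 1 of 8 pairs. With the dye term removed, differently numbered FOXO3 arrays gave values such as 0.449 and -0.397. These correlations therefore cannot show whether same-numbered samples share more than a number. Slide or scan batch as a block was not run, since the tables used here name none. Signal limits the 17 dim members, and 4 arrays a group and 1 time 0 pool a line limit the rest.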
